A study of Caenorhabditis elegans with 30 samples.

Results

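The 10 genes described here encode parts of the structure that holds homologous chromosomes together in meiosis of *Caenorhabditis elegans*. They were chosen by gene symbol: syp-1, syp-2, syp-3, syp-4, htp-1, htp-3, him-3, rec-8, him-8 and zim-2. They are 10 of the 25902 genes that a probe set of the array names alone, and each of them has 1 probe set. In meiotic prophase each chromosome is built on a protein axis of cohesin and HORMA domain proteins, and the synaptonemal complex then zips the axes of both homologues together along their length. In this nematode, zinc finger proteins bind a pairing centre near 1 end of each chromosome and bring the partners together before synapsis. These nuclei fill much of the adult hermaphrodite gonad, so transcripts of these genes in a whole animal come mainly from the germ line.

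The series holds 30 Affymetrix arrays of total RNA from whole animals, mostly young adults, in 10 groups with 3 arrays each. A pmt-2 mutant, labelled a knockout and named there as the control for the RNAi, carried the vector L4440 by its title, while its other labels name no RNAi. Wild type N2 was given tunicamycin at 25 µg/mL for 4 hours, an inhibitor of N-glycosylation used to activate the unfolded protein response, or RNAi against pmt-2, or the empty vector. Strains labelled as knockouts for atf-6, for ire-1 or for pek-1, genes of the sensors that start the unfolded protein response, each had the pmt-2 RNAi or the vector. All groups grew from synchronised L1 larvae on plates with IPTG (1 mM) and carbenicillin (25 µg/mL). pmt-2 encodes a phosphoethanolamine methyltransferase needed to make phosphatidylcholine. Allele names are not given, nor whether arrays of 1 group stem from separate cultures, and the p-values then measure only the spread between arrays, which may be technical. Tunicamycin was applied in M9 buffer, a step not described for any other group, so the drug and the buffer cannot be told apart. All values are log2 signals after RMA, and changes are differences of group means on that log2 scale with their standard error (SE) from a limma fit of all 30 arrays. A gene was called where its p, adjusted over 28387 probe sets by the Benjamini-Hochberg method, was under 0.05.

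Of the genes the study targeted, pmt-2 averaged 4.70 in its mutant and 6.63 in wild type with the RNAi, against 10.14 in wild type on vector, and it also fell with tunicamycin, to 8.70. The change of pmt-2 under the RNAi was -3.37 in the atf-6 knockout, -2.18 in the ire-1 knockout, -2.90 in the pek-1 knockout and -3.51 in wild type. ire-1 averaged 6.19 in its knockout against 8.66 in wild type on vector, and pek-1 averaged 6.74 in its knockout against 7.59. atf-6 did not pass the test in its own knockout (change -0.23, limma adjusted p = 0.467), and its probes may lie outside the deleted part, so this is no check of that label. The source labels of the RNAi and tunicamycin groups in wild type are exchanged against their titles and characteristics. The titles were followed, and pmt-2 is lowest in the group they name for the RNAi.

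By the coordinates of the deposited tables, the 10 genes lie on chromosomes I, IV and V. The sources used here do not name the genome build. The axis genes are htp-3 (F57C9.5, chrI:4827073-4829797), htp-1 (F41H10.10, chrIV:5390182-5391549), him-3 (ZK381.1, chrIV:6977508-6978932) and the cohesin gene rec-8 (W02A2.6, chrIV:13349096-13353169). The central region genes are syp-1 (F26D2.2, chrV:16405743-16407684), syp-2 (C24G6.1, chrV:5536685-5537702), syp-3 (F39H2.4, chrI:8663044-8664151) and syp-4 (H27M09.3, chrI:6847510-6849923). The pairing centre genes him-8 (T07G12.12, chrIV:10561894-10563954) and zim-2 (T07G12.10, chrIV:10555629-10558201) lie beside each other, with their relatives zim-1 and zim-3 next to them. The signals are over whole genes, with no exon given. In the RefSeq gene table syp-1 overlaps F13A7.14 and syp-3 overlaps mrt-1, and htp-1 has a close relative, htp-2, whose probe set was measured separately. Cross-hybridisation between htp-1 and htp-2 was not tested.

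**Figure D1:**
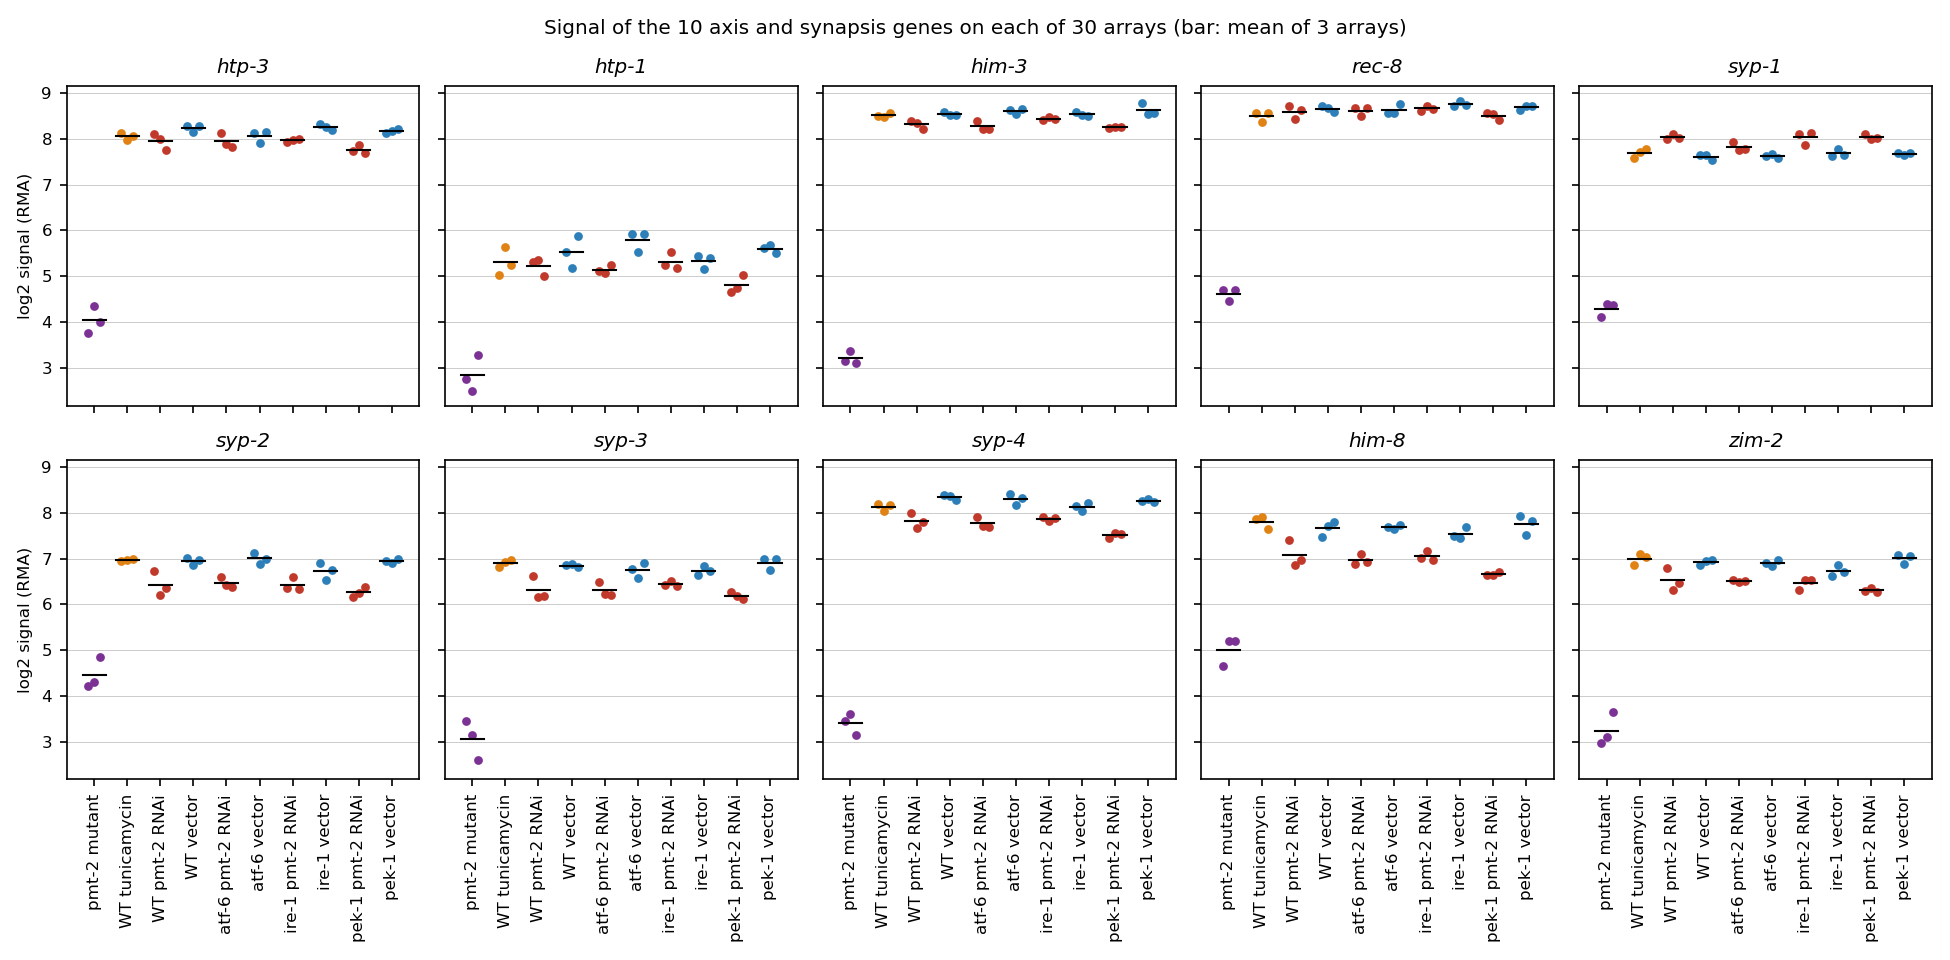
Log2 signal (vertical axis) of each of the 10 genes on each of the 30 arrays, by group, with a bar at the mean of 3 arrays; purple is the pmt-2 mutant, orange tunicamycin, red pmt-2 RNAi and blue vector. The pmt-2 mutant lies below every other array for all 10 genes, and syp-1 is the gene whose RNAi groups average above their vector groups.

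In the pmt-2 mutant all 10 genes fell against wild type on vector, with changes from -5.34 to -2.49 on the log2 scale. Their median change was -3.74, against -0.13 over all probe sets. This comparison moved much of the transcriptome: 59.2% of all probe sets were called, 30.8% as lower, so the count of 10 says little by itself. All 10 also had array ranges that did not overlap, which 64.4% of all probe sets had.

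The folds below are ratios of array signals. For 5 of the 10 genes (htp-1, him-3, syp-3, syp-4 and zim-2) the mutant mean lay below 3.87, the median of all probe sets in that group, as it did for htp-2, zim-1 and zim-3. No detection call was used here, so their folds may be lower bounds, and the falls of different genes are not ranked. him-3, whose HORMA domain protein is needed for axis assembly and synapsis, read 3.14, 3.37 and 3.11 in the mutant, against 8.59, 8.53 and 8.52 in wild type on vector. The 2 sets of arrays are more than 5 log2 units apart, and the mean was 40.4-fold lower in the mutant (change -5.34, SE 0.09, limma adjusted p = 1.22e-24). htp-3, which brings the other HORMA domain proteins to the axis, read 3.76, 4.34 and 4.01 in the mutant, against 8.29, 8.15 and 8.29 on vector (18.5-fold lower). rec-8, the meiotic kleisin subunit of cohesin, read 4.70, 4.46 and 4.69 in the mutant, against 8.73, 8.67 and 8.59 on vector (16.6-fold lower). htp-1, another HORMA domain gene, had the most variable vector arrays of the 10 genes. It read 2.76, 2.49 and 3.27 in the mutant, against 5.54, 5.17 and 5.87 on vector (6.44-fold lower, change -2.69, SE 0.19). Its relative htp-2 was 36.8-fold lower.

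The central region genes encode the transverse elements between the axes. syp-4 read 3.46, 3.60 and 3.14 in the mutant, against 8.40, 8.37 and 8.29 on vector (31-fold lower, change -4.95, SE 0.11, limma adjusted p = 2.65e-22). syp-3 read 3.44, 3.15 and 2.6 in the mutant, against 6.85, 6.88 and 6.81 on vector (13.7-fold lower). For both genes, as for all 10, the mutant arrays spread more widely than the vector arrays. syp-1 read 4.11, 4.39 and 4.37 in the mutant, against 7.65, 7.65 and 7.54 on vector (10.0-fold lower). syp-2 read 4.21, 4.31 and 4.86 in the mutant, against 7.02, 6.86 and 6.97 on vector (5.63-fold lower, change -2.49, SE 0.14). No array of either group crossed into the other for any of the 4.

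Of the pairing centre genes, zim-2, whose protein binds the centre of chromosome V, read 2.96, 3.10 and 3.64 in the mutant, against 6.87, 6.94 and 6.97 on vector (12.9-fold lower). him-8, whose protein binds the centre of the X chromosome, read 4.65, 5.19 and 5.19 in the mutant, against 7.47, 7.72 and 7.80 on vector (6.29-fold lower). The neighbours zim-1 and zim-3 were 13.3-fold and 10.6-fold lower. Against wild type with the RNAi, which shares these mutant arrays, all 10 genes were again lower in the mutant, with changes from -5.12 to -1.97, where 51.5% of all probe sets were called, 23.8% as lower.

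The fall in the mutant was shared by the other meiotic genes measured. Of 61 genes in 5 lists, 59 fell and 2 rose, with a median change of -2.62. Of all 28387 probe sets, 8733 were called lower and 8074 higher. syp-5 and syp-6, central region genes like syp-1, were 16-fold and 10.2-fold lower. dsb-1, needed for the double-strand breaks that start recombination, was 24.1-fold lower, sun-1, a nuclear envelope gene that tethers chromosome ends, 20.8-fold lower, and him-14, a MutS homologue of crossing over, 16.9-fold lower. Germ line markers moved the same way: 21 of 21 fell, and the log2 of their summed signal was 11.79 to 11.85 on the mutant arrays, against 14.82 to 14.86 on vector. Oocyte and eggshell markers fell in 22 of 22 (9.98 to 10.10 in the mutant, against 15.45 to 15.53 on vector). Sperm markers fell in 24 of 30 (8.58 to 8.67, against 10.91 to 11.39). Of these 30, 27 lay below the median of all probe sets in the mutant, and 12 already did in wild type on vector. Neuron markers rose in 19 of 19 (14.33 to 14.37, against 12.03 to 12.08). Markers of other tissues went both ways, with 7 of 16 muscle markers higher and 6 lower, 5 of 14 intestine markers higher and 5 lower, 7 of 12 hypodermis markers higher and 5 lower, and 6 of 8 somatic gonad markers higher and 2 lower. Of the hypodermis list, col-19, a collagen of the adult cuticle, was 163-fold lower in the mutant (change -7.35). In the same list wrt-2 and sqt-3 rose, with changes of 5.38 and 4.29. The animals are given as mostly young adults, and a difference of stage between the groups was not tested. col-19 had a change of -0.66 with the RNAi and of -1.04 with tunicamycin in wild type. Of the germ line and oocyte lists, gld-1, a defining germ line marker, was 101-fold lower and puf-5, a defining oocyte marker, 215-fold lower. In RNA of whole animals, fewer germ cells and less RNA per germ cell cannot be told apart, and the part of these markers in the fall of the 10 genes was not tested.

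**Figure D2:**
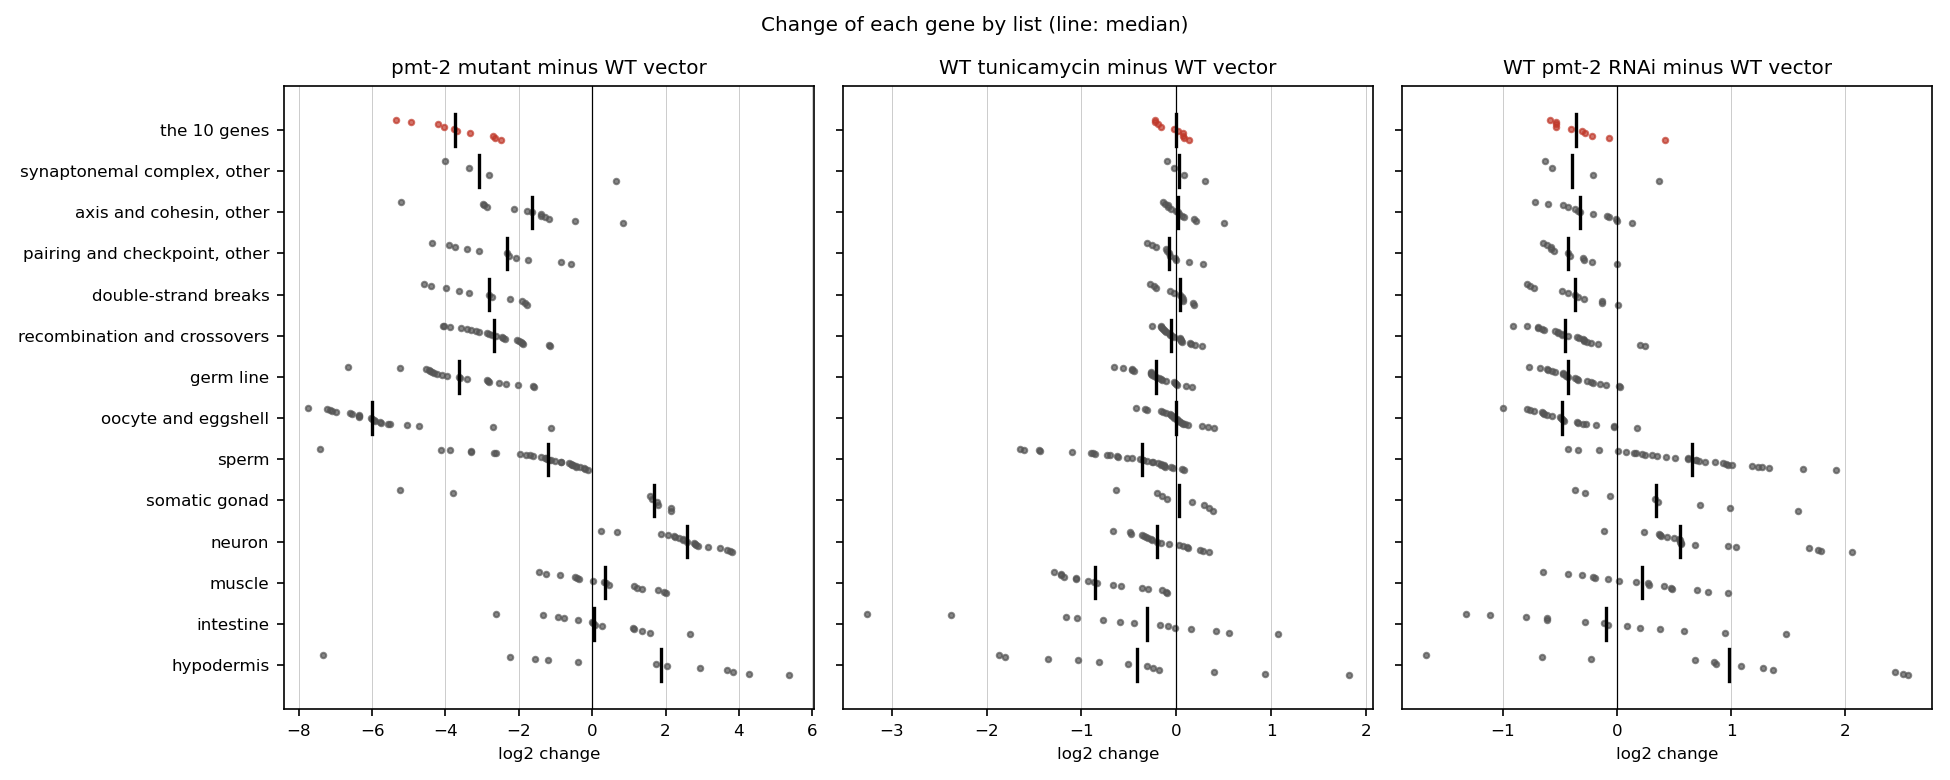
Log2 change (horizontal axis) of each gene of the 10 and of 13 further lists (rows), in the pmt-2 mutant, with tunicamycin and with pmt-2 RNAi, each minus wild type on vector; dots are genes and the black line is the list median. The 10 genes have medians of -3.74, 0.0 and -0.35 in the 3 panels, whose horizontal scales differ.

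RNAi against pmt-2 in wild type gave small changes of the 10 genes, and they went both ways. Against vector 6 of the 10 were called, 1 higher and 5 lower, where 33.3% of all probe sets were called (15.6% higher, 17.7% lower). Their median change was -0.35, against -0.09 over all probe sets. syp-1 rose, while syp-2, syp-3 and syp-4, him-8 and zim-2 fell, and none of the 4 axis genes passed the test. In 8 of the 10 genes the 3 RNAi arrays and the 3 vector arrays did not overlap, which held for 40.9% of all probe sets.

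Of the axis genes, htp-3 read 8.11, 8.01 and 7.76 with the RNAi, against 8.29, 8.15 and 8.29 on vector (change -0.28, SE 0.12, limma adjusted p = 0.0687). him-3 read 8.40, 8.34 and 8.22 with the RNAi, against 8.59, 8.53 and 8.52 on vector (change -0.22, SE 0.09, limma adjusted p = 0.0541). In both, every RNAi array was below every vector array, though by less than the adjusted threshold required. htp-1 read 5.32, 5.35 and 5.0 with the RNAi, against 5.54, 5.17 and 5.87 on vector (change -0.31, SE 0.19), and the groups overlapped. rec-8 read 8.72, 8.43 and 8.63 with the RNAi, against 8.73, 8.67 and 8.59 on vector (change -0.07, SE 0.10), the smallest difference among the 10.

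syp-1 went the other way from the rest of the central region. It read 7.99, 8.11 and 8.02 with the RNAi, against 7.65, 7.65 and 7.54 on vector, a 1.34-fold rise (change 0.42, SE 0.09, limma adjusted p = 0.000826). syp-4 read 8.0, 7.66 and 7.81 with the RNAi, against 8.40, 8.37 and 8.29 on vector (change -0.53, SE 0.11, limma adjusted p = 0.000404). No array of either group overlapped in these 2 genes. syp-2 read 6.72, 6.20 and 6.35 with the RNAi, against 7.02, 6.86 and 6.97 on vector (change -0.53, SE 0.14), and syp-3 read 6.61, 6.16 and 6.18 with the RNAi, against 6.85, 6.88 and 6.81 on vector (change -0.53, SE 0.15). In syp-2, syp-3 and syp-4, RNAi array 1 lay nearest to the vector arrays and array 2 was the lowest. F13A7.14, which overlaps syp-1 in the gene table, was lower with the RNAi (change -0.41, SE 0.15, limma adjusted p = 0.0432), the opposite direction to syp-1. mrt-1, which overlaps syp-3, had a change of -0.30 (SE 0.13, limma adjusted p = 0.0696), the same direction as syp-3. In the pmt-2 mutant F13A7.14 and mrt-1 fell like syp-1 and syp-3, with changes of -2.80 and -2.33. The part of the overlaps in these signals was not tested.

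him-8 read 7.40, 6.87 and 6.96 with the RNAi, against 7.47, 7.72 and 7.80 on vector, a 1.5-fold fall (change -0.59, SE 0.15, limma adjusted p = 0.00257). zim-2 read 6.80, 6.31 and 6.46 with the RNAi, against 6.87, 6.94 and 6.97 on vector (change -0.40, SE 0.13, limma adjusted p = 0.0229). Their highest RNAi array, array 1 in both, fell just short of the lowest vector array. The count of 6 rests on the setting of the test: it was 3 without RNAi array 2, when syp-2, syp-3 and zim-2 had limma adjusted p of 0.0509, 0.0521 and 0.147, and 3 with the variance of the 2 groups alone. In the authors' deposited table the only gene of the 10 with an FDR p under the threshold was syp-1 (0.0263). There 2860 of 28387 probe sets were under it, so no distance from the background is read from that count. syp-1 was called in each of the other alternatives run.

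Other meiotic genes mostly fell with the RNAi in wild type, 37 of 61 lower and 1 higher, with a median of -0.37. Over all probe sets 17.7% were called lower and 15.6% higher. The gene that rose was skr-1 (change 0.37), a Skp1-related ubiquitin ligase subunit that is also part of the synaptonemal complex. Among crossover genes cosa-1, which marks crossover sites, fell by 0.91, him-14 by 0.79 and zhp-3, a RING finger gene, by 0.69. spo-11, which makes the double-strand breaks, fell by 0.79, and among cohesin regulators evl-14, the Pds5 homologue, fell by 0.72 and wapl-1, which releases cohesin, by 0.60. syp-6 and syp-5 fell by 0.63 and 0.57, as syp-2, syp-3 and syp-4 did and unlike syp-1. Markers of other germ line stages did not all move one way. Germ line markers fell in 14 of 21 (summed 14.27 to 14.66 with the RNAi, against 14.82 to 14.86 on vector) and oocyte markers in 14 of 22 (14.69 to 15.46, against 15.45 to 15.53), whereas sperm markers rose in 16 of 30 and fell in 1 (11.45 to 12.02, against 10.91 to 11.39). Neuron markers rose in 17 of 19 (12.92 to 13.28, against 12.03 to 12.08). The part of these markers in the changes of the 10 genes was not tested.

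The same RNAi in the 3 sensor knockouts gave each of the 10 genes a change of the same sign as in wild type, with different numbers past the test. In the atf-6 knockout 7 of 10 fell and 0 rose, where 29.9% of all probe sets were called (13.8% higher, 16.1% lower). In the pek-1 knockout 8 fell and 1 rose, where 43.9% were called (18.7% higher, 25.2% lower). In the ire-1 knockout 1 fell and 1 rose, where 28.1% were called (14.3% higher, 13.8% lower); the count there was 4 in each of 3 alternatives, so no distance from the background is read from it. Each mutant was set against its own vector group, and these 3 comparisons share no array with one another.

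**Figure D3:**
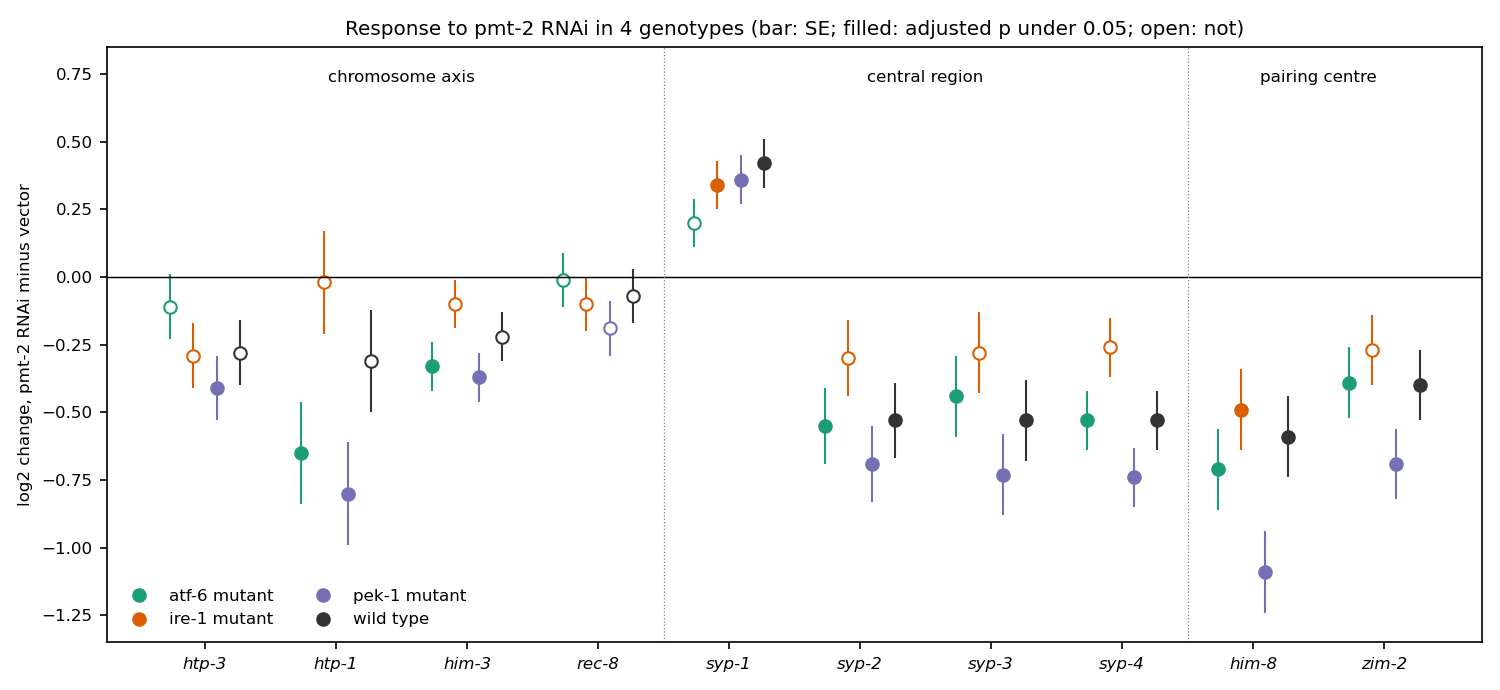
Log2 change (vertical axis) of each of the 10 genes under pmt-2 RNAi, minus vector, in the atf-6, ire-1 and pek-1 knockouts and in wild type; bars are the SE of the limma fit, filled points passed the adjusted threshold and open points did not. syp-1 lies above 0 in all 4 genotypes and the other 9 genes lie below it, with the lowest point at -1.09 for him-8 in the pek-1 knockout.

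Among axis genes the pek-1 knockout showed the largest changes. There htp-1 read 4.66, 4.74 and 5.02 with the RNAi, against 5.62, 5.68 and 5.51 on vector, a 1.74-fold fall (change -0.80, SE 0.19, limma adjusted p = 0.00112). htp-3 fell by 0.41 and him-3 by 0.37 in that knockout. In the atf-6 knockout htp-1 read 5.12, 5.07 and 5.25 with the RNAi, against 5.92, 5.54 and 5.93 on vector (change -0.65, SE 0.19, limma adjusted p = 0.00958). Both knockouts thus had htp-1 groups that did not overlap, while those of wild type did. This is not shown to be a difference from wild type. The difference of the htp-1 response from that of wild type was -0.35 in atf-6 and -0.49 in pek-1 (SE 0.27 each, limma adjusted p = 0.862 and 0.47). him-3 fell by 0.33 with the RNAi in the atf-6 knockout. In the ire-1 knockout none of the 4 axis genes passed: htp-3 had a change of -0.29 (limma adjusted p = 0.0698) and htp-1 of -0.02. rec-8 passed the test in no genotype, with changes from -0.19 in the pek-1 knockout to -0.01 in the atf-6 knockout.

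syp-1 rose in 2 of the 3 knockouts. In the ire-1 knockout it read 8.11, 7.87 and 8.12 with the RNAi, against 7.63, 7.79 and 7.65 on vector (change 0.34, SE 0.09, limma adjusted p = 0.00752). In the pek-1 knockout it read 8.10, 7.99 and 8.03 with the RNAi, against 7.69, 7.65 and 7.69 on vector (change 0.36, SE 0.09, limma adjusted p = 0.00281). The atf-6 knockout had the smallest difference: 7.93, 7.76 and 7.79 with the RNAi, against 7.63, 7.67 and 7.59 on vector (change 0.20, SE 0.09, limma adjusted p = 0.12). In all 3 knockouts each RNAi array was above each vector array. By the authors' deposited table the call in the ire-1 knockout was lost (FDR p = 0.0826), while htp-3 (0.0235) and syp-4 (0.0485), which limma did not call, were under the threshold there. The remaining central region genes went down. syp-4 read 7.46, 7.57 and 7.54 with the RNAi in the pek-1 knockout, against 8.25, 8.30 and 8.24 on vector (change -0.74, SE 0.11, limma adjusted p = 4e-06), and fell by 0.53 in the atf-6 knockout. In these same 2 knockouts syp-2 fell by 0.69 in pek-1 and 0.55 in atf-6, and syp-3 by 0.73 in pek-1 and 0.44 in atf-6. syp-2, syp-3 and syp-4 had changes of -0.30, -0.28 and -0.26 in the ire-1 knockout, none past the test (limma adjusted p = 0.121, 0.179 and 0.0728).

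him-8 was the only one of the 10 genes called lower with the RNAi in all 4 genotypes. It read 6.64, 6.64 and 6.71 with the RNAi in the pek-1 knockout, against 7.94, 7.52 and 7.82 on vector, a 2.13-fold fall (change -1.09, SE 0.15, limma adjusted p = 1.1e-06). In the atf-6 knockout it read 6.89, 7.10 and 6.92 with the RNAi, against 7.68, 7.64 and 7.73 on vector (change -0.71, SE 0.15). In the ire-1 knockout it read 7.02, 7.17 and 6.97 with the RNAi, against 7.5, 7.45 and 7.69 on vector (change -0.49, SE 0.15, limma adjusted p = 0.0134). The last call was lost without RNAi array 3 (adjusted p = 0.0517 in limma) or vector array 3 (0.0706). zim-2 fell by 0.69 with the RNAi in the pek-1 knockout and by 0.39 in the atf-6 knockout, and had a change of -0.27 in the ire-1 knockout (limma adjusted p = 0.148). In the atf-6 knockout the calls of zim-2 and syp-3 were lost when single arrays were left out, which took the count there to 5 at the lowest, as given with the other settings.

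Of the other 61 meiotic genes, 31 fell with the RNAi in the atf-6 knockout (2 rose), 32 in the ire-1 knockout (0 rose) and 48 in the pek-1 knockout (1 rose). Their median changes were -0.31, -0.32 and -0.56 in that order of knockouts. syp-6 and syp-5 fell by 0.86 and 0.76 in the pek-1 knockout, spo-11 by 1.05 and him-14 by 0.98. Germ line markers fell in 7, 4 and 16 of 21 in atf-6, ire-1 and pek-1, and their summed signal was 14.44 to 14.47 with the RNAi in the pek-1 knockout, against 14.82 to 14.89 on vector. That sum was 14.53 to 14.62 with the RNAi, against 14.77 to 14.86 on vector, in the ire-1 knockout, and in the atf-6 knockout 14.54 to 14.68, against 14.73 to 14.82. Sperm markers rose in 10, 19 and 18 of 30 in atf-6, ire-1 and pek-1, with 1 lower in each. Over all probe sets 16.1%, 13.8% and 25.2% were called lower in that order, and 13.8%, 14.3% and 18.7% higher. No distance from that share is read for the 4 of 21 germ line markers in ire-1. The part of these markers in the changes of the 10 genes was not tested.

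The interaction, which tests whether a knockout's response to the RNAi differs from that of wild type, passed for 0 of the 10 genes in each knockout (limma, with 0, 0 and 1 at an unadjusted p under 0.05 in atf-6, ire-1 and pek-1, and 0 in each of the alternatives run). The one below 0.05 unadjusted was him-8 in pek-1, with a difference of responses of -0.51 (SE 0.21, limma adjusted p = 0.285). Over all probe sets 0.0282% were called in atf-6, 6.25% in ire-1 and 1.24% in pek-1. The smaller number of calls in the ire-1 knockout is thus not shown to be a difference from wild type: the differences of the 10 responses ran from -0.08 to 0.29, with SE of 0.12 to 0.27. pmt-2 itself fell less with the RNAi in the ire-1 knockout than in wild type (difference of responses 1.33, SE 0.16, limma adjusted p = 3.55e-06). On vector it was already lower in that knockout, 9.65 against 10.14 in wild type (change -0.5, limma adjusted p = 0.00772). In the pek-1 knockout the difference of responses of pmt-2 was 0.61 (SE 0.16, limma adjusted p = 0.0613). The part of these differences of pmt-2 in the values of the 10 genes was not tested. These interactions all use the wild type arrays.

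Across the 4 genotypes, syp-1 was higher with the RNAi in 4 of 4 and each of the other 9 genes had a mean that was lower in 4 of 4. For rec-8 in the atf-6 knockout (change -0.01, SE 0.10) and htp-1 in the ire-1 knockout (change -0.02, SE 0.19) this sign is within the error, and by the authors' deposited means the change of rec-8 in the atf-6 knockout was 0.11. syp-1 ran from 7.76 to 8.12 (median 8.0) on the 12 RNAi arrays, against 7.54 to 7.79 (median 7.65) on the 12 vector arrays, and 11 of the 12 RNAi arrays lay above every vector array. him-8 ran from 6.64 to 7.40 (median 6.94) with the RNAi, against 7.45 to 7.94 (median 7.69) on vector. syp-4 ran from 7.46 to 8.0 (median 7.77) with the RNAi, against 8.04 to 8.41 (median 8.27) on vector. For syp-4, him-8 and him-3, all 12 RNAi arrays lay below all 12 vector arrays. That held for 11 RNAi arrays of syp-3 and zim-2, 9 of syp-2, 6 of htp-1 and htp-3, and 4 of rec-8. How many of all probe sets had the same sign in 4 of 4 genotypes, or such a separation of 12 and 12 arrays, was not counted. Without that background, these counts are not read as particular to these genes.

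The split between syp-1 and its partners was followed on each array, as the shift of syp-1 from its own wild type vector mean, minus the mean shift of syp-2, syp-3 and syp-4 from theirs. This measure was chosen after the values of these genes were seen, so it is a description without a test. In wild type it was 0.96 ± 0.28 with the RNAi, against 0.00 ± 0.05 on vector (SD, n = 3 each). It was 0.75 ± 0.06 with the RNAi against 0.05 ± 0.16 on vector in the atf-6 knockout, 0.89 ± 0.20 against 0.26 ± 0.14 in the ire-1 knockout, and 1.16 ± 0.08 against 0.08 ± 0.03 in the pek-1 knockout. No RNAi array overlapped a vector array of the same genotype. Tunicamycin gave 0.12 ± 0.08, and the pmt-2 mutant, in which all 4 genes fell, gave 0.42 ± 0.22. In the mutant syp-3 and syp-4 lay below the median of all probe sets, so the value there is not read as a split of syp-1.

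**Figure D4:**
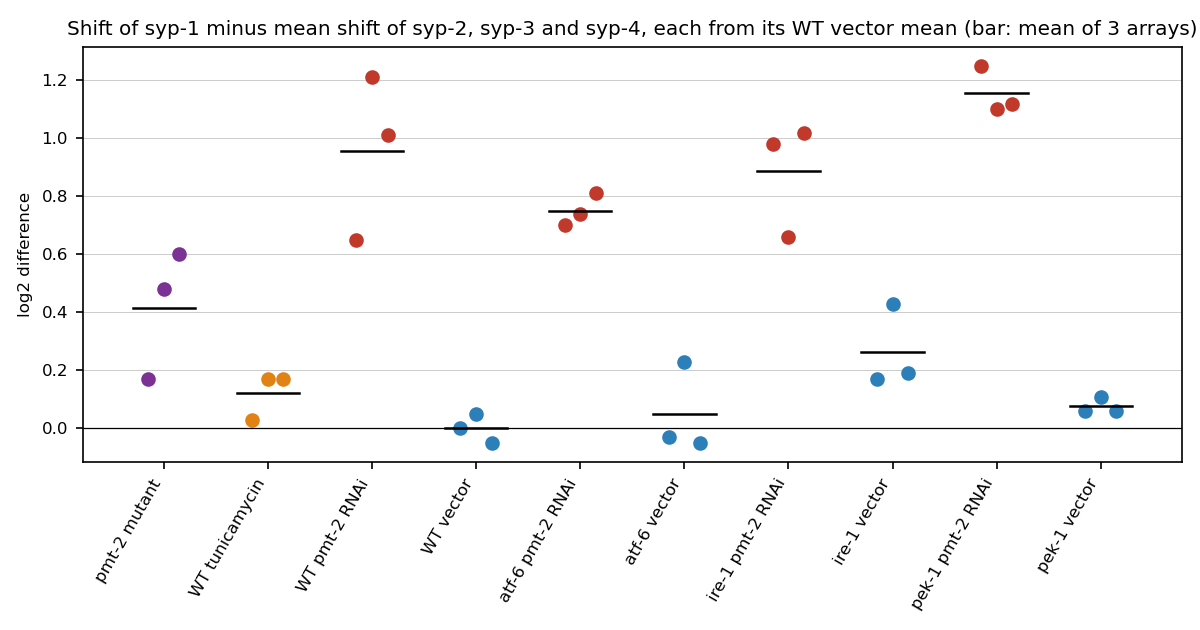
Shift of syp-1 minus the mean shift of syp-2, syp-3 and syp-4 (vertical axis, log2), each shift counted from that gene's mean in wild type on vector, for each array by group, with a bar at the mean of 3 arrays. The lowest RNAi array, at 0.65, lies above every vector array, the highest of which is at 0.43.

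Tunicamycin left the 10 genes close to vector. Against wild type on vector 0 of the 10 were called by limma, where 16.6% of all probe sets were called. At an unadjusted p under 0.05 in limma there were 0 of the 10, against 7568 of all 28387 probe sets. In the authors' deposited table there were 0 of the 10, against 1710 of all probe sets. Their changes ran from -0.22 (htp-1 and syp-4) to 0.14 (him-8). syp-4 read 8.20, 8.03 and 8.18 with tunicamycin, against 8.40, 8.37 and 8.29 on vector (change -0.22, SE 0.11, limma adjusted p = 0.201). syp-1 read 7.58, 7.71 and 7.79 with tunicamycin, against 7.65, 7.65 and 7.54 on vector (change 0.08, SE 0.09), and him-8 read 7.87, 7.91 and 7.65, against 7.47, 7.72 and 7.80 (change 0.14, SE 0.15). A p that missed the threshold does not show that the genes were unaffected. Of the other 61 meiotic genes, 2 rose and 1 fell with tunicamycin. The germ line markers fell in 5 of 21 and the sperm markers in 10 of 30. Of all 28387 probe sets, 2340 were called higher and 2375 lower.

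Loss of a sensor alone gave no call among the 10 genes. Against wild type on vector, 0 of the 10 were called in the atf-6, ire-1 and pek-1 knockouts on vector, with 0 at an unadjusted p under 0.05 in limma in each, and 0 in the authors' deposited tables. The shares of all probe sets called were 0.194%, 6.16% and 0.113%. At an unadjusted p under 0.05 in limma there were 2866, 5273 and 2404 of 28387 probe sets in that order. The authors' FDR called 6, 299 and 0 of them. In the ire-1 knockout syp-4 read 8.14, 8.04 and 8.22, against 8.40, 8.37 and 8.29 in wild type (change -0.22, SE 0.11, limma adjusted p = 0.276), and in the atf-6 knockout htp-1 had the largest change in either direction, 0.27 (SE 0.19). These 3 comparisons and those of wild type with the RNAi, with tunicamycin and with the pmt-2 mutant share the same 3 vector arrays.

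Ordered by mean, the 10 groups fell into the same broad arrangement for most of the genes. The pmt-2 mutant was lowest for all 10, and its gap to the next group was at least 1.65 (him-8), more than the larger SD of the 2 groups. For syp-2, syp-3, syp-4, htp-3, him-3, him-8 and zim-2 the 4 RNAi groups came next, then the vector groups and tunicamycin. In syp-4, htp-1, htp-3, him-8 and zim-2 the pek-1 knockout with the RNAi lay below the next RNAi group by more than the larger SD. For syp-2, syp-3 and him-3 that gap was within it. For syp-1 the 4 RNAi groups were the 4 highest, 7.83 ± 0.09 in the atf-6 knockout and 8.03 to 8.04 in the others, which did not differ beyond their spread. rec-8 had 9 groups between 8.5 and 8.77, with no gap between neighbours above the larger SD up to the last pair, the pek-1 and ire-1 knockouts on vector.

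The genes with the group profile most like the mean of the 10 were Y110A7A.15 and C30G12.6 (root mean square difference of the centred profiles over 10 group means, 0.067 each), pid-1 (0.070), R07B7.2 (0.071) and ify-1 (0.072). ify-1 encodes the securin of this nematode and pid-1 a factor of piRNA production. ify-1 averaged 5.52 in the pmt-2 mutant and 8.99 in wild type with the RNAi, against 9.39 on vector. The members themselves lay between 0.089 (zim-2) and 0.515 (him-3) from their own mean, and 890 probe sets of the array were nearer to it than him-3. The measure is led by the depth of the fall in the pmt-2 mutant, since that group is far from the others.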

How the data were processed

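RMA made the log2 values, per the submitters' processing notes, with no version named. The log2 values per array come from the deposited value table, and the deposited comparison tables, per the file headers, hold a Tukey biweight mean (log2) per group, the SD of its signals (a score with no fixed range), a signed fold change and a p-value with its FDR p-value. In every group the SD of the per-array values matched the deposited one, which ties the value table to the groups. 930 rows of the value table that the comparison tables do not hold were left out, leaving 28387 probe sets. No filter on low values was used. limma 3.58.1 in R 4.3.3 fitted 1 mean per group over all 30 arrays (lmFit and eBayes, 24.3 degrees of freedom with the prior), and p-values were adjusted by the Benjamini-Hochberg method. The test was also run on simulated data, whose results are not given here. Symbols were updated through the RefSeq gene table of assembly WBcel235, which was used for names and neighbours only.

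The members and the gene lists were chosen with earlier results of these data known. Of the other meiotic lists up to 3 genes a list are named, those with the largest change past the threshold in the comparison described. Genes named beside them (htp-2, zim-1, zim-3, F13A7.14, mrt-1) are relatives, neighbours or overlapping genes. The markers gld-1, puf-5, col-19, wrt-2 and sqt-3 were chosen after their values were seen. 4 list genes (zyg-12, rfs-1, unc-17, opt-2) were not analysed here. The number of arrays limits the precision, the labels name no batch, and same-numbered arrays of compared groups had deviations correlated between -0.08 and 0.27, not over 0.1 in every pair of any comparison, so the numbers were not used as pairs. Alternatives were a replicate block, a test rebuilt from the deposited means and SDs, the variance of the compared groups alone, centring or quantile normalization again, dim probe sets (mean log2 under 5 in every group) left out, eBayes with trend and robust, array weights, each array left out and the authors' FDR p-value. Another probe set per gene could not be tried, since each member has 1.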

Additional observations from a re-analysis of the deposited data

How the results depend on the processing

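Of the 130 changes of the 10 genes over 13 comparisons, 24 turned their sign in at least 1 alternative, 0 of which had been called. The counts of called members were 10 of 10 for the pmt-2 mutant against vector and against the RNAi group, 9 for the RNAi in the pek-1 knockout and 0 for tunicamycin, for the knockouts on vector and for the interactions with each array left out. For the RNAi in wild type the count of 6 became 3 with the variance of the compared groups alone and 1 by the authors' deposited FDR, and 3 to 8 with 1 array left out (8 without RNAi array 1). For the ire-1 knockout the count of 2 became 1 with the variance of its groups alone, 4 after quantile normalization again, 4 without dim probe sets and 4 with array weights, and 1 to 2 with 1 array left out. For the atf-6 knockout it was 5 to 7 with 1 array left out: zim-2 was lost without vector array 1 or 3 or any RNAi array, and syp-3 without vector array 1 or 3 or RNAi array 2 or 3. In wild type zim-2 was lost also without vector array 2 (adjusted p = 0.0538 in limma), vector array 3 (0.0655) or RNAi array 3 (0.0723). The cause of these shifts was not tested, except that fewer arrays or fewer degrees of freedom are built into 2 of the settings. With the replicate block the counts were 6 in wild type, 7 in atf-6, 2 in ire-1, 9 in pek-1 and 10 in the mutant, so the block changed no call count, and the arrays share only a number. Array weights used limma's gene-by-gene method, which gave wild type RNAi array 3 a weight of 5.82.

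Of all probe sets, the 9467 called for the RNAi in wild type became 5634 with the variance of the compared groups alone and 2860 by the authors' FDR. The 4715 with tunicamycin became 2970 and 1710, and the 8478 for the RNAi in the atf-6 knockout became 5323 by the authors' FDR. For the knockouts on vector the calls, 55 in atf-6, 1748 in ire-1 and 32 in pek-1, became 5, 834 and 5 with the variance of the compared groups alone, and 6, 299 and 0 by the authors' FDR. Rebuilt from the deposited means and SDs, they became 212 in atf-6 and 93 in pek-1, and array weights gave 100 in atf-6. The interactions, with 8, 1775 and 353 calls in atf-6, ire-1 and pek-1, had 0, 1096 and 36 with the variance of the compared groups alone and 62, 3863 and 2115 with array weights, while the rebuilt test gave 13 in atf-6 and 846 in pek-1. Without dim probe sets, which leaves 12992 tested, the pek-1 interaction had 544 calls. Germ line markers lower with the RNAi in the ire-1 knockout became 9 of 21 (4 with all probe sets) in that setting, and with tunicamycin 8 (5). The calls of the RNAi in the ire-1 knockout, 4052 higher and 3923 lower, became 3693 and 4292 after quantile normalization again. Centring each array on its median moved the median change in the pmt-2 mutant to -0.26, against -0.13 as deposited, and the share of calls that were higher to 22.9% (41.8% as deposited) in atf-6 on vector, 31.5% (48.3%) in ire-1 on vector, 50% (62.5%) in pek-1 on vector and 61.9% (49.9%) in the ire-1 interaction. syp-1 still rose in wild type after centring, by 0.34.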
